A study of Pistacia chinensis with 8 samples.

Results

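The microRNA families miR164 and miR394 were read from small RNA of inflorescence buds of Chinese pistache (Pistacia chinensis). Their members were chosen by name alone, as every miRNA whose name after the species prefix begins with miR164 or miR394 and no further digit, which gave 12 of the 471 rows of the deposited table. Of these, 11 were miR164 and 1 was miR394. Buds came from female plants (strain C1), male plants (strain X1) and from 1 strain, T2, that bore both monoecious female and monoecious bisexual buds. Each was taken at the floral stages that the labels name B and C, without an age, treatment or further genotype, so the 8 libraries stood for the 8 combinations of sex type and stage. No group had replicates, and the labels do not say whether a library came from 1 tree or a pool.

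miR164 guides the cleavage of mRNAs of NAC transcription factors, among them the CUP-SHAPED COTYLEDON genes, which in Arabidopsis set the boundaries between neighbouring organs. In Arabidopsis flowers a miR164 gene limits petal number, and loss of the family disturbs the fusion and spacing of floral organs. miR394 targets the mRNA of an F-box protein, LEAF CURLING RESPONSIVENESS, and in Arabidopsis it moves from the outer cell layer of the shoot tip inwards, where it keeps stem cells competent. The table holds miRNAs, so target mRNAs and marker genes of the tissue were not analysed here. In whole buds, fewer cells of a type and less RNA per cell cannot be told apart.

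The 8 libraries held 160129 to 1159015 reads on miRNA rows. The smallest was the library of bisexual buds at stage B, and the other 7 held at least 419169 reads. A count of 3 reads was worth 18.4 CPM (reads per 1000000 reads of the library) there and 3.77 to 5.55 CPM elsewhere, after TMM scaling, the trimmed-mean scaling of edgeR. Many results that rest on that library are given with and without it, while levels and ratios of single libraries include it. Scaling also matters between the stages. With total counts in place of TMM the median change of all tested rows from stage B to stage C moved from 0.18 to 0.87 on the log2 scale, so levels are given as TMM CPM, and the total-count value is added where it turns the direction given for a member.

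Reads of miR394 all lay on a single row, ath-miR394a, with 10794 reads in the 8 libraries. Female buds held 1214 of these reads at stage B and 1945 at stage C, and male buds held 993 and 913. Monoecious female buds held 2249 and 1739 reads, and bisexual buds 111 and 1630. The bisexual library of stage B was the lowest of the 8, also after scaling for its depth.

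In CPM the row stood highest in monoecious female buds at stage B, at 3852 CPM (exact Poisson 95% interval 3695 to 4015). Below it came female buds at stage C (3289 CPM), monoecious female at stage C (2786 CPM) and bisexual at stage C (2502 CPM). The lower part of the order held male buds at stage C (1689.5 CPM), female at stage B (1526 CPM), male at stage B (1489.9 CPM) and bisexual at stage B (680.3 CPM, 559.6 to 819). The levels thus spanned 5.66-fold, with the shallow bisexual library of stage B at the low end. Without that library the lowest level was 1489.9 CPM. Of the 7 pairs of neighbours in this order, female and male buds at stage B were the only pair whose ratio had an interval that included 1 (1.02, 95% interval 0.941 to 1.11). With total counts the order changed at the top, where female buds of stage C led with 4107 CPM and monoecious female buds of stage B, at 2739 CPM, stood below all but 1 of the stage C libraries. Bisexual buds of stage B were lowest under that scaling too (693 CPM). All intervals given here cover counting error and nothing else, because each group holds 1 library. They take each read as a separate molecule, and the reads carry no molecular identifiers.

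The 11 miR164 rows held far fewer independent reads than their number implies. ath-miR164a and gma-miR164b had the same count in 8 of 8 libraries and are treated as 1 set of reads under the first name. Both rows still enter the family sums and the counts of tested rows. Of the 11 rows, 8 passed the minimum of 10 reads in at least 2 libraries used for tests. The 3 others were zma-miR164g-3p, with 12 reads in all and at most 4 in a library, and bra-miR164e-3p and osa-miR164c, with 2 reads each. Names of the 3p arm held 14 of 6058 miR164 reads, counting shared reads on each row. All other miR164 reads lay on names of the 5p arm or without an arm.

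ath-miR164a, named for an Arabidopsis gene, had 409 reads (514 CPM) in female, 282 (423 CPM) in male, 198 (339 CPM) in monoecious female and 82 (503 CPM) in bisexual buds of stage B. In the stage C libraries the female count was 255 (431 CPM), the male 237 (439 CPM), the monoecious female 258 (413 CPM) and the bisexual 202 (310.1 CPM). The highest and the lowest library thus differed 1.66-fold, against 5.66-fold for ath-miR394a, whose lowest level was that of the bisexual library of stage B. Of the 7 pairs of neighbours in the order of levels, 6 had ratios whose interval included 1. The exception was monoecious female at stage C over monoecious female at stage B (1.22, 95% interval 1.01 to 1.47). With total counts ath-miR164a spanned 2.35-fold, from 241 CPM in monoecious female buds of stage B to 565 CPM in male buds of stage C. On that scale ath-miR394a spanned 5.93-fold.

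ath-miR164c-5p, whose Arabidopsis namesake is the copy that limits petal number, had 143, 128, 69 and 43 reads in the female, male, monoecious female and bisexual libraries of stage B and 96, 90, 99 and 87 in those of stage C. With the sex types in that order, osa-miR164d had 98, 74, 46 and 39 reads, then 55, 59, 54 and 55. vun-miR164 had 58, 54, 43 and 7 reads, then 61, 75, 93 and 35. Of the 7 distinct miR164 rows that passed the minimum, vun-miR164 was the only one with a higher TMM level at stage C in all 4 sex types. With total counts zma-miR164h-5p, hci-miR164a and osa-miR164e were higher in all 4 as well. How many of all tested rows were higher in all 4 was not counted.

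The remaining 3 rows held fewer reads. zma-miR164h-5p had 51, 38, 27 and 3 reads, then 28, 27, 26 and 26. hci-miR164a had 38, 32, 21 and 1, then 21, 19, 22 and 20. osa-miR164e had 27, 24, 15 and 0, then 17, 17, 17 and 18. In these 3 rows the bisexual library of stage B was the lowest of all 8, and for osa-miR164e the 25.7 to 36.0 CPM of the other 7 lay above the 18.4 CPM that 3 reads are worth there. With total counts 6 of the 7 lay above it. Summed over its 11 rows, miR164 ranked from 8 to 14 by reads among the 67 named families, and miR394 from 8 to 15. The miR164 sum counts the reads shared by ath-miR164a and gma-miR164b on both rows, which raises its rank.

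**Figure D1:**
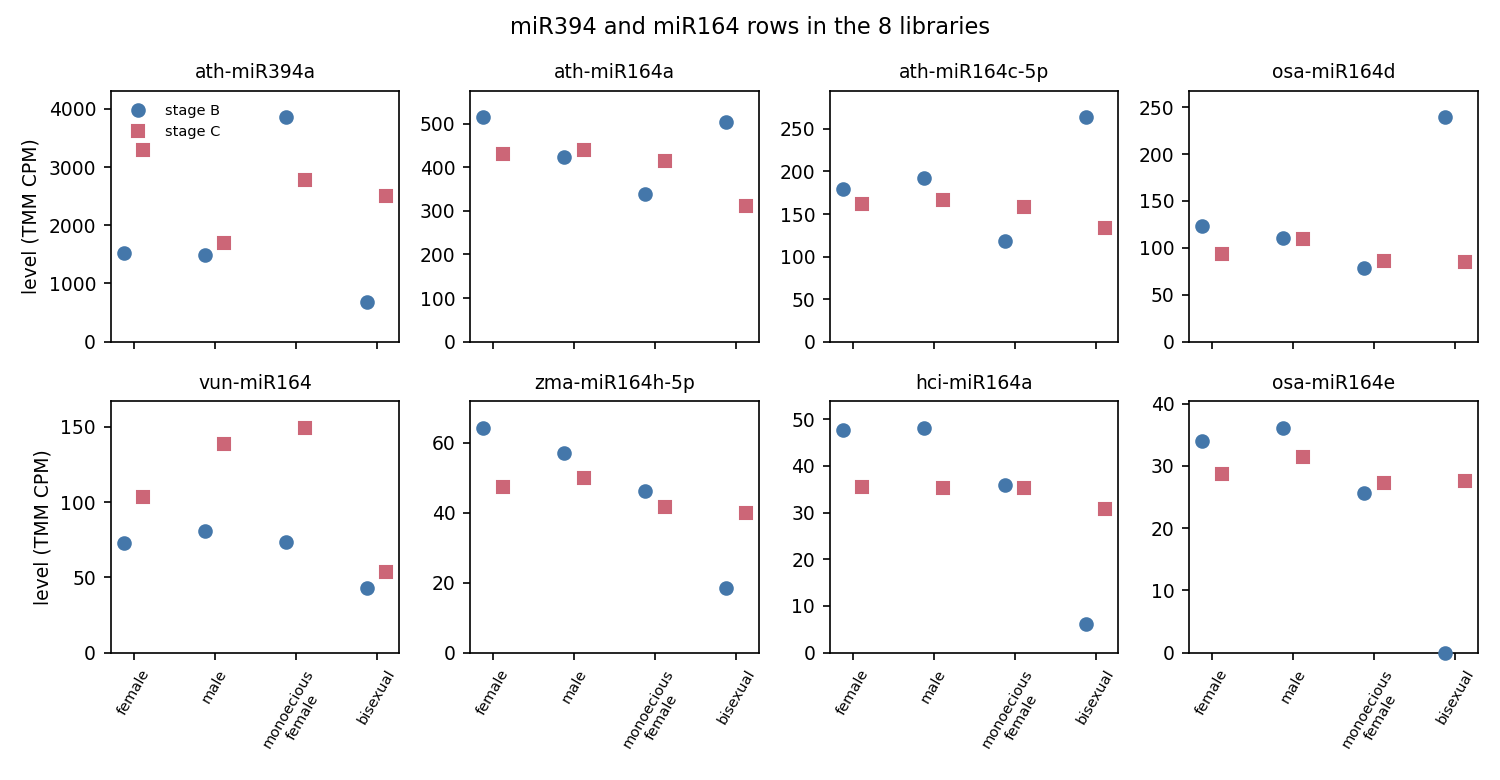
Level of ath-miR394a and of 7 miR164 rows (TMM CPM, linear axes from 0, a scale of its own in each panel) in the 4 sex types, circles for stage B and squares for stage C, 1 library per point. ath-miR394a is lowest in bisexual buds at stage B (680.3 CPM), vun-miR164 is higher at stage C in each sex type, and osa-miR164e has 0 reads in bisexual buds at stage B.

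Between the 2 stages of sex differentiation no miR164 or miR394 row passed the test. edgeR's quasi-likelihood test, with stage and sex type as additive terms, called 0 of the 9 tested rows of both families. None of the 9 had an unadjusted p under 0.05, and DESeq2 also called 0 of them. Over all 248 rows edgeR called 19% in either direction, 12.5% higher and 6.45% lower. The median change of the 9 rows was 0.01 on the log2 scale against 0.18 over all rows. The model takes its spread from the interaction of sex type and stage, with 3 residual degrees of freedom, and not from replicate trees.

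ath-miR394a stood at 1887 ± 1367 CPM in the stage B libraries and at 2567 ± 669 CPM in those of stage C (SD, n = 4 libraries each, 1 per sex type). The log2 change was 0.67 (SE 0.46, edgeR adjusted p = 0.344). Leaving out 1 library at a time gave 0.25 to 1.04. Total counts gave 1.36, and the edgeR or DESeq2 adjusted p ran from 0.0557 there to 0.470 over the alternatives that keep every library or drop both bisexual ones. In single pairs of libraries the change differed between sex types beyond counting error, and the fit takes that spread as its error. Stage C stood at 2.16 times stage B in female buds (95% interval 2.01 to 2.32) and at 3.68 times in bisexual buds (3.03 to 4.50). In male buds the ratio was 1.13 (1.04 to 1.24), and in monoecious female buds it was 0.723 (0.679 to 0.770). With total counts these ratios were 3.92, 4.77, 1.89 and 1.24 in the same order, so the direction in monoecious female buds depends on scaling, and the order of the ratios does not.

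vun-miR164 was higher at stage C in 4 of 4 sex types under both scalings, a trait that was not counted over all rows. Its levels were 67.6 ± 16.9 CPM in the stage B and 111 ± 43.0 CPM in the stage C libraries (SD, n = 4 libraries each), a log2 difference of 0.67 (SE 0.38) that did not pass (edgeR adjusted p = 0.244). The ratio of stage C to stage B was 1.42 in female (0.972 to 2.06), 1.71 in male (1.19 to 2.48), 2.02 in monoecious female (1.39 to 2.97) and 1.25 in bisexual buds (0.548 to 3.34). Without the bisexual library of stage B the row passed at 0.97 (SE 0.28, edgeR adjusted p = 0.0295), in a fit that called 43.1% of 246 rows. Without both bisexual libraries it passed at 0.94 (adjusted p = 0.0338), where 45.6% of 237 rows were called. Over its alternatives with every library kept or both bisexual ones left out, the adjusted p ran from 0.0338 to 0.456.

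The most abundant miR164 row had similar mean TMM levels at the 2 stages, while the ratios of single sex types differed. ath-miR164a stood at 445 ± 81.2 CPM over the stage B libraries and at 398 ± 59.8 CPM over those of stage C (SD, n = 4 libraries each), with a log2 change of -0.15 (SE 0.36, edgeR adjusted p = 0.773). With total counts it had 0.54, below the median of all rows on that scale, and without both bisexual libraries 0.20, and it passed in no fit. Its adjusted p ran from 0.357 to 0.863 with every library kept or both bisexual ones left out, and was at least 0.555 with 1 library left out. In the 4 sex types the ratio of stage C to stage B was 0.839 in female (0.715 to 0.983), 1.04 in male (0.868 to 1.24), 1.22 in monoecious female (1.01 to 1.47) and 0.617 in bisexual buds (0.475 to 0.808). The direction in female buds turned with total counts (1.53, 95% interval 1.30 to 1.79). Male (1.72, 1.44 to 2.06) and monoecious female buds (2.09, 1.73 to 2.53) lay above 1 on that scale. Bisexual buds stayed below 1 (0.800, 0.616 to 1.05).

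The other miR164 rows had changes of -0.22 (SE 0.40, or 0.47 with total counts) for ath-miR164c-5p, -0.44 (SE 0.44, or 0.26 with total counts) for osa-miR164d, 0.01 (SE 0.43) for zma-miR164h-5p, 0.09 (SE 0.55) for hci-miR164a and 0.37 (SE 0.71) for osa-miR164e. None passed in edgeR, and the changes of the last 3 rest on 3, 1 and 0 reads in bisexual buds at stage B. In the table of 96 family sums and predicted rows that reached the minimum, miR164 had -0.54 (SE 0.42, edgeR adjusted p = 0.367) and miR394 had 0.23 (SE 0.53, adjusted p = 0.776). The miR394 sum holds the same reads as ath-miR394a, and its change is lower because the TMM factors of the family table differ. With the factors of the single rows the sums had -0.13 and 0.67. With total counts they had 0.56 and 1.36, so the direction of the miR164 sum depends on scaling.

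**Figure D2:**
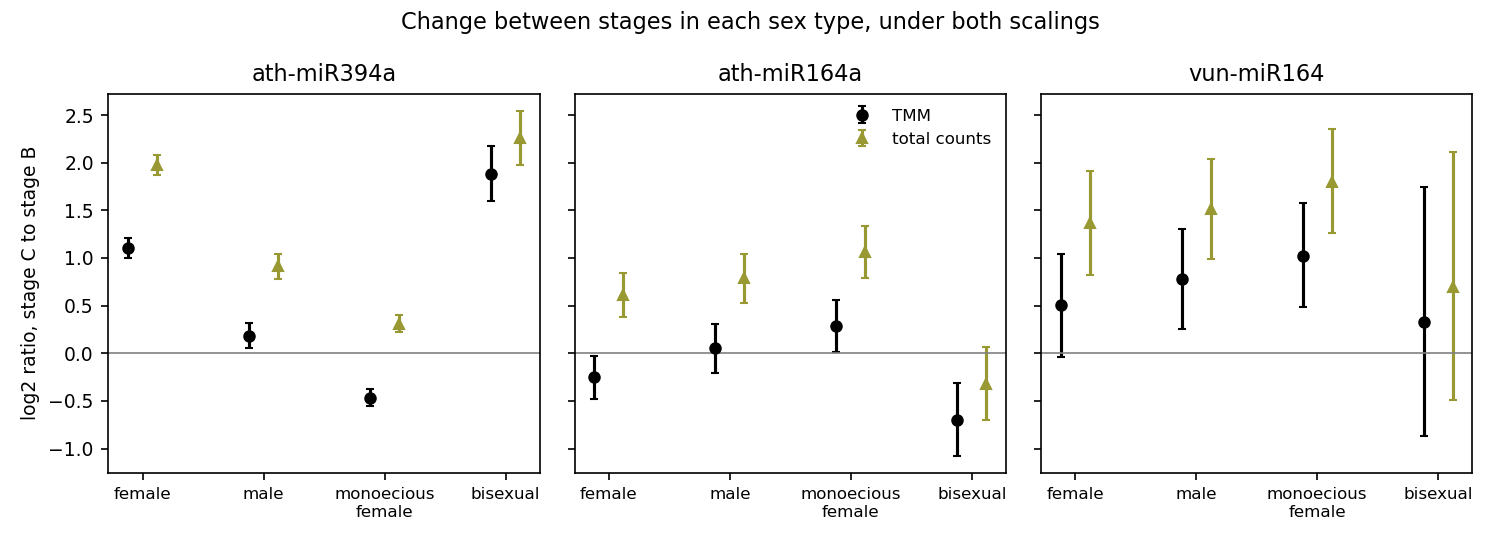
Log2 ratio of stage C to stage B in each sex type for ath-miR394a, ath-miR164a and vun-miR164, with TMM scaling (circles) and total counts (triangles), 1 library per stage, bars giving exact conditional binomial 95% intervals (counting error only). Total counts raise every ratio, and ath-miR394a keeps its order of sex types, highest in bisexual buds (3.68-fold with TMM) and lowest in monoecious female buds (0.723-fold).

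Ratios of 2 rows inside a library need no scaling between libraries. ath-miR394a had 2.97 reads per read of ath-miR164a in female (95% interval 2.65 to 3.33), 3.52 in male (3.08 to 4.03), 11.4 in monoecious female (9.82 to 13.2) and 1.35 in bisexual buds (1.01 to 1.82) of stage B. For stage C the ratio was 7.63 in female (6.69 to 8.73), 3.85 in male (3.34 to 4.46), 6.74 in monoecious female (5.91 to 7.71) and 8.07 in bisexual buds (6.97 to 9.39). The 4 sex types thus spread from 1.35 to 11.4 at stage B, or from 2.97 to 11.4 without the bisexual library. At stage C male buds stood below the other 3, which lay between 6.74 and 8.07. Male buds had overlapping intervals at the 2 stages, and monoecious female buds were the only sex type with a lower ratio at stage C.

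Relative to ath-miR164a, vun-miR164 was higher at stage C in each sex type. Per 100 reads of ath-miR164a it had 14.2 reads in female buds of stage B and 23.9 in those of stage C. In male buds it had 19.1 and 31.6, in monoecious female buds 21.7 and 36.0, and in bisexual buds 8.54 and 17.3. Within each stage the order of the sex types was the same, with monoecious female highest and bisexual lowest. ath-miR164c-5p, in contrast, had 34.8 to 52.4 reads per 100 in the stage B libraries and 37.6 to 43.1 in those of stage C, higher at stage C in 2 of 4 sex types. These intervals and ratios take the reads of 2 rows as distinct, and the sources used here do not say how reads shared by similar names were counted.

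**Figure D3:**
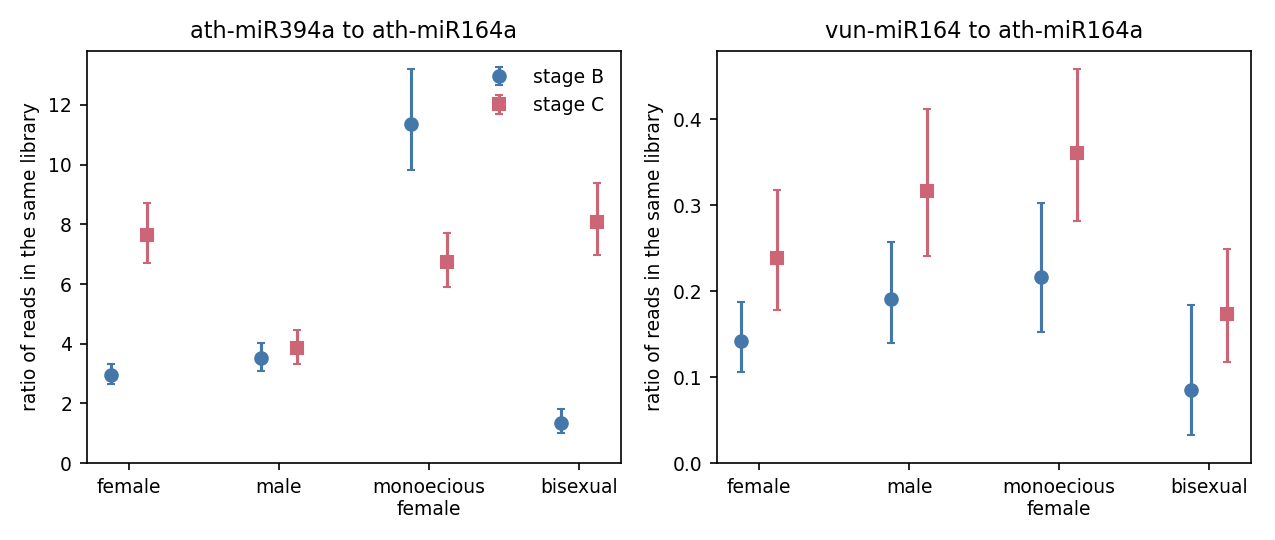
Reads of ath-miR394a (left) and vun-miR164 (right) per read of ath-miR164a in the same library, by sex type, circles for stage B and squares for stage C, with exact binomial 95% intervals. For ath-miR394a the monoecious female library of stage B (11.4) and the bisexual library of stage B (1.35) are the extremes. For vun-miR164 stage C is higher in each sex type, with overlapping intervals.

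Monoecious female and bisexual buds share strain T2, so this comparison is free of a strain difference. In the stage B pair ath-miR394a in bisexual buds was 0.177 times the monoecious female level (95% interval 0.145 to 0.214), from 111 against 2249 reads. In the stage C pair it was 0.898 times that level (0.839 to 0.962), and 0.974 times with total counts (0.910 to 1.04). Between these single pairs of libraries the gap was wider for stage B than for stage C. Whether the gap changes with stage was not tested for these bud types. The intervals cover counting error only, and the stage B ratio rests on the shallow bisexual library. Over both stages the fitted log2 difference was -1.31 (SE 0.66, edgeR adjusted p = 0.625). edgeR called 0 of 248 rows, or 0%, and 19 had an unadjusted p under 0.05. DESeq2 called 10, none of either family. Without the bisexual library of stage C it passed at -2.18 (SE 0.63, adjusted p = 0.0336), where the bisexual level came from stage B alone and 22.7% of 238 rows were called. The miR394 sum also passed there (-2.41, adjusted p = 0.0163), where 20.4% of 93 families and predicted rows were called. With the bisexual library of stage B left out instead, the row had -0.59 (SE 0.63) and did not pass (adjusted p = 0.782).

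The ath-miR164a ratio of the same bud types lay on opposite sides of 1 at the 2 stages, in 1 pair of libraries each. The bisexual level over the monoecious female one was 1.48 (95% interval 1.13 to 1.93) for stage B and 0.750 (0.621 to 0.906) for stage C. With total counts the ratios were 2.12 (1.62 to 2.76) and 0.814 (0.674 to 0.982), on the same sides of 1. The fitted difference over both stages was 0.08 (SE 0.51, edgeR adjusted p = 0.978). vun-miR164 was lower in bisexual buds at both stages, at 0.582 times (0.221 to 1.31) and 0.361 times (0.237 to 0.537), with a fitted difference of -1.15 (SE 0.56, adjusted p = 0.625) that did not pass.

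The male and female libraries, of strains X1 and C1, lay near each other in miR394 at stage B and apart at stage C, and the difference at stage C alone was not tested. ath-miR394a in male buds was 0.976 times the female level at stage B (0.897 to 1.06) and 0.514 times at stage C (0.474 to 0.556), or 1.10 and 0.530 times with total counts. Over both stages the log2 difference was -0.49 (SE 0.63, edgeR adjusted p = 0.996). ath-miR164a stood at 0.823 times (0.705 to 0.960) and 1.02 times (0.849 to 1.22), with a fitted difference of -0.13 (SE 0.50). vun-miR164 stood at 1.11 times (0.753 to 1.64) and 1.35 times (0.947 to 1.92), with a fitted difference of 0.29 (SE 0.52). Of the 248 rows edgeR called 0, or 0%, and 12 had an unadjusted p under 0.05. DESeq2 also called 0.

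The monoecious female library held more miR394 than the female one at stage B and less at stage C, beyond counting error, with 1 library on each side. The ratio for ath-miR394a, between strains T2 and C1, was 2.52 in the stage B pair (2.35 to 2.71) and 0.847 in the stage C pair (0.793 to 0.904). Total counts gave 2.61 and 0.827. Monoecious against dioecious buds had a fitted log2 difference of 0.23 (SE 0.44, edgeR adjusted p = 0.915) for ath-miR394a, -0.21 (SE 0.36) for ath-miR164a and -0.44 (SE 0.38) for vun-miR164, none of which passed, and 0.403% of rows were called. Without the bisexual library of stage C the value for ath-miR394a was -0.27, and without that of stage B it was 0.50. Among family sums and predicted rows 3.12% were called, 1.04% higher and 2.08% lower in monoecious buds, and neither family was among them.

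Stamen-bearing buds (male and bisexual) were set against pistillate buds (female and monoecious female). The fitted value is the mean of the dioecious and the monoecious difference, so either system alone can carry it. Male and female buds also differ in strain. ath-miR394a had a fitted difference of -0.90 on the log2 scale (SE 0.45), but did not pass (edgeR adjusted p = 0.835). Of all rows 0% were called by edgeR, and 12 of 248 had an unadjusted p under 0.05. DESeq2 called 3, none of either family. At stage B the levels were 1489.9 and 680.3 CPM in stamen-bearing and 1526 and 3852 CPM in pistillate buds. At stage C they were 1689.5 and 2502 against 3289 and 2786 CPM. In TMM levels both stamen-bearing libraries lay below both pistillate ones at each stage. At stage B, however, male and female buds lay within counting error of each other. With total counts the classes overlapped at stage B (1155 CPM in male buds and 1047 CPM in female buds). How many of all rows separate in this way was not counted, so nothing is read from it for this row. Without the bisexual library of stage C the difference was -1.38 (SE 0.39, adjusted p = 0.0350), with 17.6% of 238 rows called. The miR394 sum passed there as well (-1.53, adjusted p = 0.0216), where 15.1% of 93 families and predicted rows were called. With that of stage B left out instead, the row had -0.57 and did not pass (adjusted p = 0.816).

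For the miR164 rows the same comparison gave -0.02 (SE 0.36, or 0.21 with total counts) for ath-miR164a and -0.43 (SE 0.38) for vun-miR164. Of the 9 member rows, 0 passed in edgeR or DESeq2 and 0 had an unadjusted p under 0.05. A further fit, with 2 residual degrees of freedom, let the stage change differ between stamen-bearing and pistillate buds. That difference was 0.70 (SE 1.02) for ath-miR394a, -0.33 (SE 0.92) for ath-miR164a and -0.19 (SE 1.01) for vun-miR164, each with an edgeR adjusted p of 1. Of all rows 0% were called, and 2 had an unadjusted p under 0.05. DESeq2 also called 0. osa-miR164e passed without the male library of stage B (adjusted p = 0.0366) and without that of stage C (adjusted p = 0.0394), in fits that called 25.6% and 25.8% of rows. In both fits the change in stamen-bearing buds came from the bisexual pair alone, with 0 and 18 reads, so the fitted size is not given.

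The bisexual library of stage B lay at an extreme in the make-up of the miR164 family. Per 100 reads of ath-miR164a it held 47.6 reads of osa-miR164d (95% interval 31.6 to 70.5), while the other 7 libraries held 20.9 to 27.2. hci-miR164a had 1.22 reads per 100 there (0.0305 to 6.99), against 8.02 to 11.3, and osa-miR164e had 0, with an upper bound of 4.60, against 6.59 to 8.91. zma-miR164h-5p (3.66, 0.739 to 11.1), vun-miR164 (8.54, 3.33 to 18.4) and ath-miR164c-5p (52.4, 35.4 to 76.7) also lay outside the range of the other libraries, but with intervals that reached into it. This library also had the fewest reads, with 82 on ath-miR164a, and the part of depth in this was not tested.

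**Figure D4:**
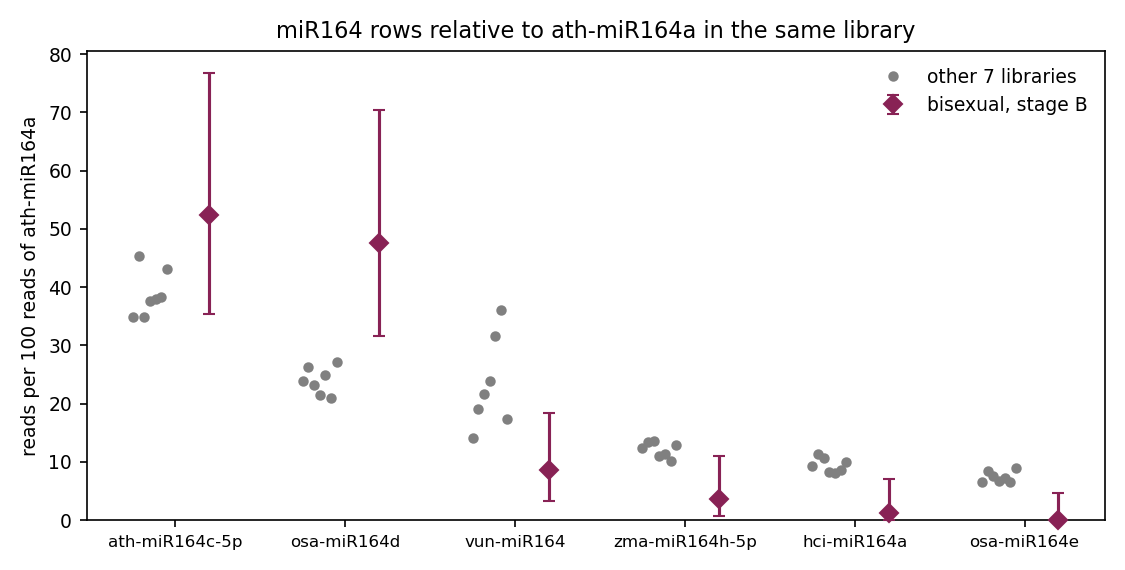
Reads of 6 miR164 rows per 100 reads of ath-miR164a in the same library, with grey points for the other 7 libraries and diamonds with exact binomial 95% intervals for bisexual buds at stage B. osa-miR164d is higher there (47.6 against 20.9 to 27.2), and hci-miR164a and osa-miR164e are lower. Intervals of the grey points are not drawn, and some overlap those of the diamonds.

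Across the 8 libraries the miR164 sum ran opposite to miR394 in TMM levels, while the single miR164 rows differed in sign. The log2 level of the miR164 sum had a Pearson correlation of -0.70 and a Spearman correlation of -0.76 with that of miR394 (n = 8 libraries), and a Pearson correlation of -0.64 without the bisexual library of stage B. With total counts it was 0.12, so the opposition depends on scaling. Of the single rows in TMM levels, ath-miR164a (-0.67), ath-miR164c-5p (-0.91) and osa-miR164d (-0.94) had negative Pearson correlations with ath-miR394a. Those of vun-miR164 (0.47), zma-miR164h-5p (0.51), hci-miR164a (0.64) and osa-miR164e (0.71) were positive. For vun-miR164 it was -0.0033 without the bisexual library of stage B. The miR164 sum counts the reads shared by ath-miR164a and gma-miR164b on both rows. Within a library both families are divided by the same scaling factor, and the libraries fall into 2 stages, so the values are given as a description.

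Of 60 other families and predicted miRNAs that reached 10 reads in 6 or more libraries, miR858, a family that targets MYB genes, followed miR394 most closely. Its log2 level had a Pearson correlation of 0.90 and a Spearman correlation of 0.95 with miR394 over the 8 libraries. It was also first with total counts (0.93), and it had 0.91 without the bisexual library of stage B. Next came the predicted novel_47 (0.81), with 2 to 82 reads per library, and miR156, which targets SPL genes (0.81), with 0 to 49. Without that library they had 0.42 and 0.41. For miR164 the closest were novel_46 (0.77), miR3711 (0.70) and novel_44 (0.59), which came to 0.62, 0.28 and -0.36 with total counts.

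Other miRNA families that act on organ boundaries, polarity and meristems were taken as a list of 7, namely miR165 and miR166 (HD-ZIP III genes), miR171 (GRAS genes of the HAIRY MERISTEM group), miR319 (TCP genes), miR160 and miR390 (auxin response factors, directly or through trans-acting siRNAs) and miR396 (growth-regulating factors). Between stages edgeR called 0 of the 7 sums with the planned factors, where 20.8% of 96 families and predicted rows were called, 12.5% higher and 8.33% lower. Their log2 changes ran from -1.17 (SE 0.40, edgeR adjusted p = 0.0640) for miR166 to 0.98 (SE 0.39, adjusted p = 0.103) for miR171. Including miR164 and miR394 the median change of the list was -0.54, against 0.09 over all families and predicted rows. The 7 without them had a median of -0.71, and of 0.39 with total counts.

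The calls of this list depended on scaling and on the bisexual libraries. With the factors of the single rows miR166 passed as lower (-0.77, edgeR adjusted p = 0.0263) and miR171 as higher (1.38, adjusted p = 0.0136), where 24% were called. With total counts, which moved the median of all families by 1.17, miR171 (2.07, adjusted p = 0.00500) and miR390 (2.01, adjusted p = 0.0407) passed as higher and miR166 had -0.084, with 25% called. Without the bisexual library of stage B, 2 of the 7 passed as higher and 5 as lower, in a fit that called 52.1%, and without both bisexual libraries the counts were the same, with 51.6% called. Leaving out that of stage C gave 0 higher and 5 lower, with 45.2% called. The miR164 and miR394 sums passed in none of these fits between stages. In the comparisons between sex types edgeR called 0 of the 7 with all libraries kept.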

How the data were processed

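The deposited table holds raw counts of reads per miRNA row and, in further columns, the authors' TPM values, equal to the count divided by the column total and multiplied by 1000000 within 4.29e-05. The submitters' processing notes name CASAVA 1.8 and Bowtie, while the sources used here give neither build nor settings. Every value column matched 1 library by title. TPM entered no test, and no sequences were used here.

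The tests used rows that reached 10 reads in 2 or more libraries. Each was edgeR's quasi-likelihood F-test (edgeR 4.0.16, R 4.3.3) with TMM factors, additive terms for stage and sex type, and Benjamini-Hochberg adjustment over all rows tested, at a threshold of 0.05. Family sums were tested likewise with their own TMM factors, while their levels use the factors of the rows. Reads shared by rows with identical counts enter a sum on each row, except where identical rows are kept once. The SE is the absolute log2 change over the root of F. With 1 library per group the p-values measure the sex type by stage spread (common dispersion 0.268), which may be technical. A ratio of 2 libraries has an exact conditional binomial interval at 95%. Alternatives were RLE factors, total counts, no filter, 50 reads, DESeq2 1.42.0, identical rows kept once, each library left out and both bisexual libraries left out. Family sums with the factors of the rows were added after seeing the data. The procedure was tested on simulated data, where it recovered a smaller share of the changed rows for male against female, bisexual against monoecious female and the interaction than between stages. Every member row was named, with counts per library for those that passed the minimum. Members and lists were chosen with earlier results of these data known.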

Additional observations from a re-analysis of the deposited data

Results flagged for a closer look

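osa-miR164e was singled out because its stage change had opposite signs in the dioecious and the monoecious sex types in TMM levels. The log2 change from stage B to stage C was -0.24 in female and -0.19 in male buds, and 0.084 in monoecious female buds. In bisexual buds it was 0.59 with a floor of 3 reads put in place of the 0 reads of the stage B library. The stage C library held 18 reads, and the value does not include their counting error. The first 3 lay within counting error of no change, as ratios of 0.847 (95% interval 0.433 to 1.61), 0.874 (0.441 to 1.70) and 1.06 (0.498 to 2.28). With total counts all 4 were positive, at 0.62, 0.54, 0.86 and, against the same floor, 0.96. The difference between the sexual systems was not tested. The groups of this series hold 1 library each, so no library could be set against replicates.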

How the results depend on the processing

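No paired analysis was possible because each group holds 1 library, so replicate numbers pair nothing. The stage test itself compares the stages within sex types, which enter as a term. Of 514 recomputed changes of member rows and of the miR164 and miR394 sums, 6 passed the threshold, each with 1 or both bisexual libraries left out. These do not count the interaction of osa-miR164e, which passed without either male library. Among the changes between stages, total counts turned ath-miR164a (0.54), ath-miR164c-5p (0.47), osa-miR164d (0.26) and the miR164 sum (0.56). Leaving out both bisexual libraries turned the same 3 rows (0.20, 0.20 and 0.076), hci-miR164a (-0.13), zma-miR164h-5p (-0.085) and the miR394 sum (-0.30), raised vun-miR164 to 0.94 so that 1 member passed, and gave 108 calls over all rows against 47. zma-miR164h-5p also turned with RLE factors (-0.0052) and DESeq2 (-0.024). For stamen-bearing against pistillate buds, ath-miR164a turned with RLE factors (0.043), DESeq2 (0.040) and total counts (0.21), and the miR164 sum with no filter (-0.023) and identical rows kept once (-0.092). For male against female, total counts turned the miR164 sum (0.070), and 1 row was called without both bisexual libraries. For monoecious against dioecious buds the miR394 sum (-0.23) turned with RLE factors and DESeq2 (0.078 each), total counts (0.30), no filter (0.015), 50 reads (0.18) and the factors of the rows (0.23), and with no filter the interaction of the miR164 sum turned to 0.31. DESeq2 called 10 rows for bisexual against monoecious female, 11 for monoecious against dioecious (3 with 50 reads, 1 in edgeR) and 3 for stamen-bearing against pistillate buds, none of them members. Of the 7 other boundary and meristem sums, 0 were called between stages, 2 with RLE factors, total counts, 50 reads or the factors of the rows, 3 with DESeq2 and 7 without both bisexual libraries. The cause of these changes was not tested.

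Leaving out 1 library at a time gave these ranges. Between stages the calls over all rows ran from 0 to 112 and those of members from 0 to 1, with log2 changes of -0.31 to 0.23 for ath-miR164a, -0.45 to 0.23 for ath-miR164c-5p, -0.65 to 0.10 for osa-miR164d, -0.33 to 0.31 for hci-miR164a, -0.28 to 0.17 for zma-miR164h-5p, -0.14 to 0.64 for osa-miR164e, 0.53 to 0.97 for vun-miR164 and -0.41 to 0.54 for the miR394 sum. For bisexual against monoecious female the calls ran from 0 to 54 (members 0 to 1), ath-miR164a from -0.29 to 0.42, ath-miR394a from -2.18 to -0.52, the miR164 sum from -0.30 to 0.75 and the miR394 sum from -2.41 to -0.10. For male against female the calls ran from 0 to 3, ath-miR164a from -0.27 to 0.0074, the miR164 sum from -0.73 to 0.16 and the miR394 sum from -0.95 to 0.079. For monoecious against dioecious the calls ran from 1 to 31, ath-miR394a from -0.27 to 0.51 and the miR394 sum from -0.86 to 0.36. For stamen-bearing against pistillate the calls ran from 0 to 42 (members 0 to 1), ath-miR164a from -0.21 to 0.14, ath-miR394a from -1.38 to -0.47, the miR164 sum from -0.27 to 0.29 and the miR394 sum from -1.53 to -0.41. For the interaction the calls ran from 0 to 63 (members 0 to 1), ath-miR164a from -0.72 to 0.14, ath-miR394a from -0.19 to 1.56, vun-miR164 from -0.48 to 0.13, the miR164 sum from -1.01 to 0.46 and the miR394 sum from -0.77 to 2.14. For the other boundary and meristem sums the calls ran from 0 to 7 between stages, from 0 to 1 for bisexual against monoecious female and from 0 to 2 for monoecious against dioecious. A lone library left in a sex type is assumed to vary like the others. Depth limits the rows under 100 reads in every library, whose levels in bisexual buds at stage B rest on at most 39 reads.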
